A study of Mus musculus with 8 samples.

Results

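The cytochrome P450 families 1 to 3 hold the membrane-bound enzymes that oxidise drugs, dietary and microbial compounds, steroids, bile acids and polyunsaturated fatty acids. They are followed here in 8 RNA sequencing libraries of mouse intestinal crypts. Members were taken by name: every gene whose symbol starts with Cyp, a family number from 1 to 3, a subfamily letter and a gene number, with the pseudogenes marked "-ps" left out. The rule gave 60 of the 34745 genes in each table, all 60 annotated as protein coding in GENCODE M21, in subfamilies Cyp1a, Cyp1b, Cyp2a to Cyp2g, Cyp2j, Cyp2r to Cyp2u, Cyp2w and Cyp3a. It did not take Cyp2ab1, whose subfamily has a pair of letters.

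All 8 libraries came from crypts of wild-type C57BL/6 mice labelled day 5, and all are labelled with dextran sulfate sodium (DSS), which damages the epithelium of the gut when mice take it up and is a standard means of causing colitis. The DSS group has 4 libraries with no further agent. The DSS+CA group has 4 libraries that also carry CA. From the title of the series this is cholic acid, a bile acid that the liver makes from cholesterol. No library without DSS was analysed here, and age, dose, route and gut segment are not given in the labels. The labels do not say whether replicates are separate animals, so the p-values here reflect the spread among these 8 libraries and no more, and that spread may be technical.

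Microsomal P450 enzymes bind oxygen at a haem iron and take electrons from cytochrome P450 oxidoreductase (Por). Their genes are under ligand-activated control: the aryl hydrocarbon receptor (Ahr) drives the Cyp1 genes, the pregnane X receptor (PXR, Nr1i2) chiefly the Cyp3a genes, and the constitutive androstane receptor (CAR, Nr1i3) chiefly the Cyp2b genes, with much overlap. In the gut the enzymes meet swallowed and bacterial compounds before the liver does, and bile acids are among both the substrates of Cyp3a enzymes and the ligands of PXR.

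Library totals ran from 13334012 to 17973196 counts, and members took 0.258% to 0.539% of a library. The libraries differed within groups along an axis that carried 50.9% of the variance of tested genes. DSS 2, DSS 3 and DSS+CA 3 had the shortest mean length of counted genes, 1423 to 1448 bases against 1719 to 2412 in the other 5 libraries. The share of mitochondrial genes, a sign of RNA quality, was 16.2%, 27.7%, 17.8% and 19.8% in DSS 1 to 4 and 9.72%, 14.1%, 20.5% and 13.2% in DSS+CA 1 to 4, highest in DSS 2 and DSS+CA 3 and lowest in DSS 1 and DSS+CA 1. All 15 villus enterocyte markers, the digestive and absorptive genes of mature epithelium, were detected, but they did not order the libraries in 1 way. The 3 with most counts, Apoa1, Apoa4 and Fabp2, summed to 68990, 90240 and 98210 CPM (counts scaled to a common library size) in DSS 2, DSS 3 and DSS+CA 3 and to 16310 to 41900 CPM in the other libraries. The other 12 summed to 21730 to 32980 CPM in DSS and 20570 to 31000 CPM in DSS+CA. Among them Alpi, Anpep and Treh, enzymes of the brush border, had the lowest level of each group in DSS 2 and DSS+CA 3. The 8 stem and proliferation markers were also detected, at 445 to 1868 CPM, so the libraries labelled crypts held mature enterocyte RNA as well. Of 8 hepatocyte markers 7 had a count, and the list summed to 406 to 840 CPM in DSS and 601 to 1171 CPM in DSS+CA, nearly all of it from Cps1, which the small intestine also expresses. Ttr had 578 counts, Tat 114 and Apoh 53, while Alb had 9, Serpina1a 5, Fgb 2 and Fga none. The colon markers Car1, with no count, and Hoxb13, with 2, were near 0 as well, while Lct, the small-intestinal lactase, stood at 119 to 1268 CPM. In such bulk samples fewer cells of a type and less RNA per cell cannot be told apart.

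Of the 60 members, 39 had a count in some library and 21 had none. The comparison used the 17 members that reached 1 FPKM (the deposited value, a count per gene length and library total) in at least 4 of the 8 libraries, among 9913 genes tested; these 17 held 99.8% of all 471232 member counts. No member passed edgeR's quasi-likelihood test at an adjusted p of 0.05, in either direction, where 0.131% of all tested genes did, with 0.0404% higher and 0.0908% lower in DSS+CA. At an unadjusted p below 0.05, met by 7.82% of all tested genes, edgeR gave 5 members, all lower in DSS+CA (Cyp2b10, Cyp2c55, Cyp2c66, Cyp3a25 and Cyp3a59), against 4.85% of all tested genes in that direction, and 0 members higher against 2.97%. DESeq2 called 1 member, Cyp2c55, lower in DSS+CA, where it called 2.22% of all genes it tested, with 1.71% lower, and limma-voom called none. The fitted log2 fold change, given throughout as DSS+CA against DSS, was below 0 for 13 of the 17, against 48.1% of all tested genes. Its median over the 17 was -0.69, against 0.02 over all tested genes. Without DSS+CA 3 the median was -1.08 with 13 below 0, and without DSS 2, DSS 3 and DSS+CA 3 it was -0.39 with 12 below 0.

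Per length, Cyp3a13 had the highest level of all members, with a median of 421 FPKM over the 8 libraries. It was followed by Cyp3a11 (164 FPKM), Cyp2d26 (160 FPKM) and Cyp2c65 (157 FPKM). Next came Cyp3a25 at 68.7, Cyp2c68 at 60.5, Cyp2j6 at 59.2 and Cyp2b10 at 47.4 FPKM. Cyp2c66, Cyp2c55, Cyp2d22, Cyp1a1 and Cyp2s1 had medians of 7.16 to 10.8 FPKM, and Cyp3a59, Cyp2j9, Cyp2c44 and Cyp2u1 of 1.035 to 2.46 FPKM. The Cyp3a subfamily held 66.9% of all member counts and Cyp2c 13.3%.

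**Figure D1:**
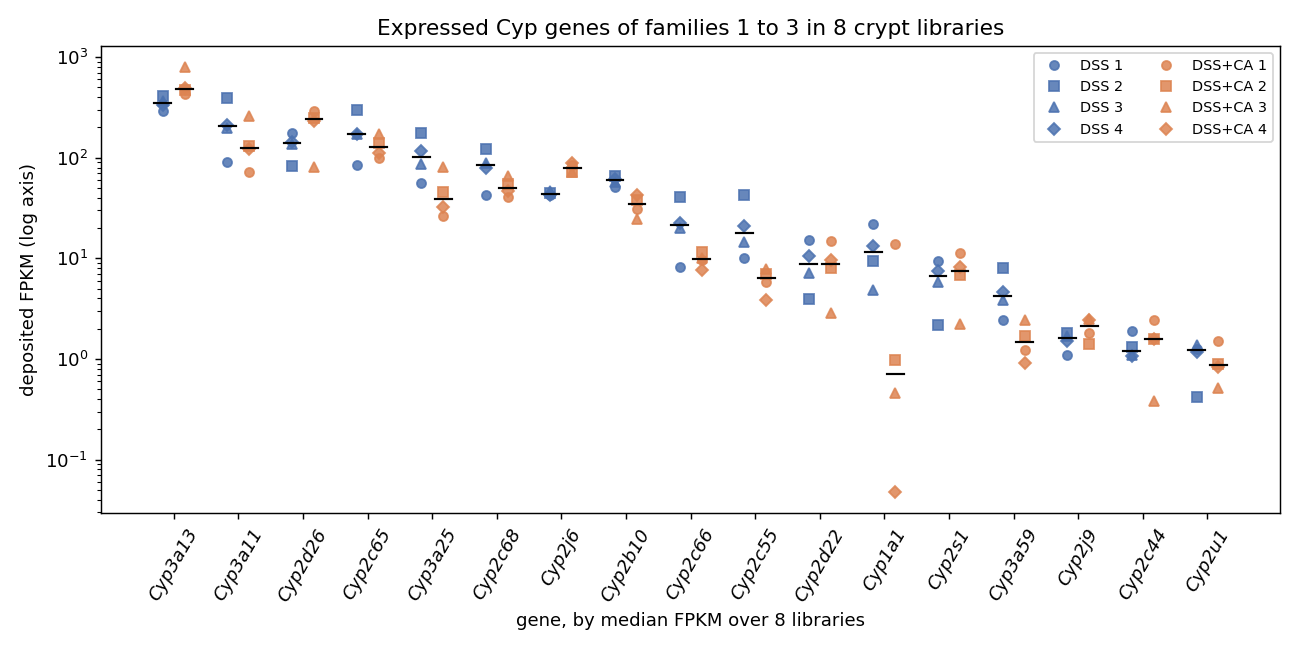
Deposited FPKM (log axis) of the 17 tested members in each of the 8 libraries, ordered by the median over libraries, with a short line at each group's median; DSS in blue, DSS+CA in orange, and the marker shape gives the replicate number. On this scale the groups do not overlap for Cyp2j6 and Cyp3a13 (DSS+CA above DSS) and for Cyp2b10 and Cyp2c55 (DSS+CA below DSS). They do not overlap for 5.89% of all tested genes either. The Cyp1a1 value of DSS+CA 1 lies far above the other 3 DSS+CA libraries.

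The Cyp3a subfamily holds the enzymes of broadest substrate range, which in mice hydroxylate steroids, bile acids and many drugs. Of its 9 members, 4 were tested. All but Cyp3a13 lie in a cluster on chromosome 5 between positions 145345279 and 146113287; Cyp3a13 (ENSMUSG00000029727, chr5:137892932-137921619, minus strand) lies 7.42 Mb away. Coordinates are those of the deposited tables, whose build is GRCm38 per the submitters' processing notes. Coding sequences of the tested members were 77.4% to 77.9% identical between Cyp3a11, Cyp3a13 and Cyp3a25, but Cyp3a25 and Cyp3a59 were 97.5% identical. Of all 50-base stretches of the Cyp3a59 transcripts, 30.0% also occurred in another P450 gene, as did 26.8% of those of Cyp3a25, 6.73% of those of Cyp3a11 and none of those of Cyp3a13. The values of Cyp3a25 and Cyp3a59 are therefore uncertain as to how the authors' counting split reads between them.

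The 3 tested members of the cluster had log2 fold changes below 0 and Cyp3a13 above 0, as given below, and edgeR called none of them. The sign of Cyp3a13 rested on DSS+CA 3, without which its log2 fold change was -0.02. Cyp3a25 and Cyp3a59, being close copies, are not separate observations. This difference between genes was not tested. With it already seen, the sequences upstream of the RefSeq start sites (GRCm38.p6) are shown. They are written 5′ to 3′ on the strand of the gene, and bases inside the deposited gene were left off, which shortened Cyp3a11 to 140 and Cyp3a59 to 249 of the 250 bases. Capitals mark AGGTCA on either strand, the hexamer that nuclear receptors such as PXR and CAR bind in pairs.
Cyp3a11, chr5:145879965-145880104, minus strand: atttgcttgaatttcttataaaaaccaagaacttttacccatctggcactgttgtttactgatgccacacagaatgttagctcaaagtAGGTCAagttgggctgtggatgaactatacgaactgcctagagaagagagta
Cyp3a13, chr5:137921620-137921869, minus strand: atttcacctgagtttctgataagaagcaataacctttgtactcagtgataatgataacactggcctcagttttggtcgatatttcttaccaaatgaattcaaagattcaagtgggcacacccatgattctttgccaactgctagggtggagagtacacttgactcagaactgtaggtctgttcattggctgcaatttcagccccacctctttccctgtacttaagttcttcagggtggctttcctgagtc
Cyp3a25, chr5:146009619-146009868, minus strand: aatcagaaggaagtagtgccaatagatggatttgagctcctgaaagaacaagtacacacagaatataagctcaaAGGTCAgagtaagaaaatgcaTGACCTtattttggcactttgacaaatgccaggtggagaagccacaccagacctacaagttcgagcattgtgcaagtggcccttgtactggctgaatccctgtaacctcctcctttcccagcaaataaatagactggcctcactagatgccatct
Cyp3a59, chr5:146079008-146079256, plus strand: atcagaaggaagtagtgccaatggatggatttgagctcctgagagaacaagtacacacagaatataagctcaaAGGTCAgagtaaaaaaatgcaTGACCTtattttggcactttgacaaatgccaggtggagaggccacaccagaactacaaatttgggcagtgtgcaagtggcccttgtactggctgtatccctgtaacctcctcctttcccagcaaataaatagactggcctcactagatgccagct
The printed windows of Cyp3a25 and Cyp3a59 were 95.2% identical, and each held AGGTCA once on each strand. Cyp3a11 held it once and Cyp3a13 not at all. Among the 14 tested members with a RefSeq window of 250 bases, these 3 were the only ones with a match on either strand, against 14.0% of all 32851 windows. No match overlapped TATAAA or GCGTG, the other motifs searched. A match describes the letters only.

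Cyp3a11, the mouse gene most used as a readout of PXR, was at 381.5, 2767, 1236 and 1101 CPM in DSS 1 to 4 and at 287, 582, 1838 and 542 CPM in DSS+CA 1 to 4. DSS 2 and DSS+CA 3 were the highest libraries of their groups, and the groups overlapped. The means were 1371 ± 1003 and 812 ± 696 CPM (SD, n = 4 each), with a log2 fold change of -0.76 (SE 0.65, edgeR adjusted p = 0.926). Without DSS 2 the log2 fold change was -0.16, and without DSS+CA 3 it was -1.54.

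Cyp3a13, the member with the highest level, was at 703, 1675, 1302 and 977 CPM in DSS 1 to 4. In DSS+CA 1 to 4 it was at 985, 1213, 3204 and 1258 CPM. DSS+CA 3 stood far above the other 3 of its group, and the groups overlapped in CPM. The log2 fold change was 0.52 (SE 0.45, edgeR adjusted p = 0.930), and without DSS+CA 3 it was -0.02. In the deposited FPKM values, which are scaled to library totals and not by TMM (trimmed mean of M values), the groups did not overlap: 289 to 413 FPKM in DSS and 428.5 to 795 FPKM in DSS+CA. The same held for 5.89% of all tested genes.

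Cyp3a25, a steroid hydroxylase of liver and intestine, was at 152, 794, 347 and 382 CPM in DSS 1 to 4 and at 66.8, 129, 361 and 92.0 CPM in DSS+CA 1 to 4. The DSS+CA libraries other than DSS+CA 3 lay below every DSS library. Its log2 fold change was -1.37 (SE 0.60, edgeR adjusted p = 0.604), a 2.59-fold lower fitted level. It was -2.13 without DSS+CA 3 and -0.86 without DSS 2.

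Cyp3a59, its close copy, was at 5.37, 29.4, 12.4 and 12.3 CPM in DSS 1 to 4. In DSS+CA 1 to 4 it was at 2.54, 3.92, 8.89 and 2.13 CPM. Again only DSS+CA 3 reached into the range of DSS. The log2 fold change was -1.78 (SE 0.58, edgeR adjusted p = 0.330), a 3.44-fold lower fitted level. It was -2.37 without DSS+CA 3 and -1.22 without DSS 2.

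The summed Cyp3a level overlapped between groups, at 2973 ± 1688 CPM in DSS and 2644 ± 1865 CPM in DSS+CA (SD, n = 4 each). Within that sum the make-up differed. These shares were looked at after the values of single genes were seen, are not independent of each other, and are described without a test. Cyp3a13 held 56.6%, 31.8%, 44.9% and 39.5% of Cyp3a counts in DSS 1 to 4, and 73.4%, 62.9%, 59.2% and 66.4% in DSS+CA 1 to 4. All 4 DSS+CA shares exceeded all 4 DSS shares. Cyp3a25 held 12.3%, 15.1%, 11.98% and 15.4% in DSS 1 to 4, and 4.98%, 6.68%, 6.66% and 4.86% in DSS+CA 1 to 4. Here every DSS+CA share lay below every DSS share, DSS+CA 3 included. The share of Cyp3a59 was 0.478% ± 0.0612 in DSS and 0.167% ± 0.0401 in DSS+CA (SD, n = 4 each), also without overlap, and that of Cyp3a11 was 42.6% ± 8.99 and 28.5% ± 5.27, with overlap. Cyp3a25 counts were 0.281 to 0.399 times those of Cyp3a11 in DSS and 0.170 to 0.233 times in DSS+CA.

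**Figure D2:**
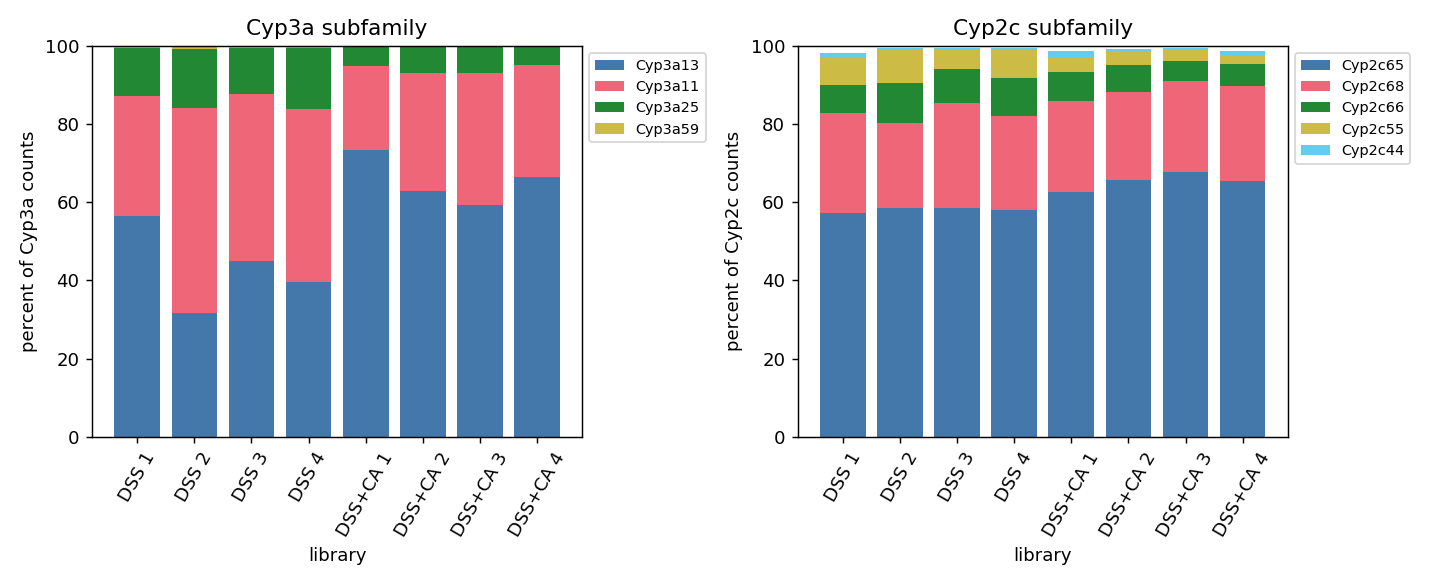
Percent of the counts of the Cyp3a subfamily (left) and of the Cyp2c subfamily (right) held by each tested member in each library, as stacked bars; members below the filter make up the rest to 100. Cyp3a13 holds 59.2% to 73.4% of Cyp3a counts in DSS+CA and 31.8% to 56.6% in DSS, and Cyp2c65 holds 62.7% to 67.8% of Cyp2c counts in DSS+CA and 57.2% to 58.6% in DSS.

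Other features of the libraries moved with the Cyp3a level within groups. The summed Cyp3a level was 1243, 5275, 2899 and 2475 CPM in DSS 1 to 4 and 1341, 1928, 5412 and 1894 CPM in DSS+CA 1 to 4. The 6 Paneth cell markers, all detected, summed to 5802, 37950, 37020 and 17960 CPM and to 4403, 8394, 17390 and 6920 CPM, and the 8 T and NK cell markers, all detected, to 496, 1949, 1902 and 1084 CPM and to 99.6, 251, 1085 and 241 CPM. Both sums had the same order of libraries as Cyp3a within each group. Within DSS+CA so had the sum of all 15 villus enterocyte markers. Most of the T and NK sum came from Gzma and Gzmb, and the members of that list went both ways. Gzma, Gzmb, Cd3d and Cd3g were lowest of their group in DSS 1 and highest in DSS+CA 3. Cd3e and Cd8a were instead highest of their group in DSS 1, at 16.4 and 54.3 CPM. Lck and Nkg7 were lowest of their group in DSS+CA 3, at 2.86 and 2.05 CPM. The sum of the villus list was 41090, 102000, 112000 and 66100 CPM in DSS 1 to 4 and 40100, 54910, 129200 and 53650 CPM in DSS+CA 1 to 4, but its members went both ways: DSS 1, lowest in Cyp3a, had the highest level of its group for 6 of the 15 and the lowest for 6. The mitochondrial share was also lowest in DSS 1 and DSS+CA 1 and highest in DSS 2 and DSS+CA 3. DSS 1 and DSS+CA 1 had the highest Cyp3a13 shares of their groups. The part of these features in the Cyp3a levels and shares was not tested.

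The Cyp2c enzymes oxidise arachidonic acid and other fatty acids to epoxides and hydroxy acids, besides drugs. Of the 15 members 9 had a count and 5 were tested. Cyp2c55, Cyp2c65, Cyp2c66 and Cyp2c68 lie with 10 other members in a cluster on chromosome 19 (39007019 to 40187333), and Cyp2c44 (44005022 to 44029247) lies 3.82 Mb away. Cyp2c65 and Cyp2c66 have coding sequences 96.3% identical, and 20.2% and 19.5% of their 50-base stretches occurred in another P450 gene. For Cyp2c68 that share was 43.3%, mostly with Cyp2c40, so its value is uncertain. For Cyp2c55 it was 0.514%, the lowest of the 4 tested members of the cluster.

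Cyp2c55, an intestinal enzyme that makes hydroxy acids from arachidonic acid, was at 16.6, 116, 35.4 and 41.7 CPM in DSS 1 to 4 and at 9.03, 12.2, 21.2 and 6.71 CPM in DSS+CA 1 to 4. DSS+CA 3 lay above DSS 1 and below the other DSS libraries, so the groups overlapped in CPM. In FPKM they did not, at 10.1 to 42.3 in DSS and 3.865 to 7.78 in DSS+CA. The means were 52.4 ± 43.6 and 12.3 ± 6.34 CPM (SD, n = 4 each), with a log2 fold change of -2.10 (SE 0.57, edgeR adjusted p = 0.203). DESeq2 gave -2.15 with an adjusted p of 0.00912, the lowest among the alternatives, whose highest was 0.573. Without DSS 2, the library with the highest value, the edgeR log2 fold change was -1.36.

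Cyp2c66 was at 16.7, 136, 58.7 and 55.2 CPM in DSS 1 to 4 and at 18.2, 24.3, 33.4 and 16.2 CPM in DSS+CA 1 to 4. DSS 1 lay within the range of the DSS+CA libraries and the other 3 above it. The log2 fold change was -1.53 (SE 0.53, edgeR adjusted p = 0.385), or -0.92 without DSS 2.

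Cyp2c65, the Cyp2c gene with the highest FPKM, was at 136, 780, 406 and 332 CPM in DSS and at 150, 237, 453 and 187.5 CPM in DSS+CA. The groups overlapped over most of their range, and the log2 fold change was -0.69 (SE 0.52, edgeR adjusted p = 0.901), or -0.18 without DSS 2. Cyp2c68 ran from 61.0 to 292 CPM in DSS and from 55.2 to 155 CPM in DSS+CA (log2 fold change -0.90, SE 0.48, edgeR adjusted p = 0.732). Cyp2c44, an epoxygenase, was at 2.09 to 3.51 CPM in DSS and 1.02 to 3.75 CPM in DSS+CA, with a log2 fold change of -0.12 (SE 0.42).

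Counted against its own subfamily, Cyp2c55 held 6.99%, 8.68%, 5.11% and 7.29% of Cyp2c counts in DSS 1 to 4. In DSS+CA 1 to 4 it held 3.78%, 3.36%, 3.17% and 2.34%. Each DSS+CA share was below each DSS share. Cyp2c65 went the other way, with 58.1% ± 0.617 in DSS and 65.4% ± 2.11 in DSS+CA (SD, n = 4 each), without overlap. The shares of Cyp2c44, Cyp2c66 and Cyp2c68 overlapped between groups. These too are descriptions of a pattern looked at after the values were seen. The summed Cyp2c level was 237, 1334, 692 and 572 CPM in DSS 1 to 4 and 239, 361, 668 and 286.5 CPM in DSS+CA 1 to 4. It was lowest in DSS 1 and DSS+CA 1, the libraries with the lowest mitochondrial shares and Paneth sums of their groups, and highest in DSS 2 and DSS+CA 3, those with the highest. Their part in the Cyp2c level was not tested.

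Cyp2b10, the classic target of CAR, was the only Cyp2b gene of 5 with a count. It is ENSMUSG00000030483 and lies at chr7:25897620-25926624 on the plus strand. Its values were 133, 282.5, 217 and 194 CPM in DSS 1 to 4 and 75.5, 102, 105 and 116 CPM in DSS+CA 1 to 4. Every DSS+CA library was below every DSS library, by at least the gap between 116 and 133 CPM. The same held in FPKM, at 51.8 to 66.2 in DSS and 24.8 to 42.9 in DSS+CA. The means were 206 ± 61.9 and 99.7 ± 17.3 CPM (SD, n = 4 each), with a log2 fold change of -1.05 (SE 0.31), 2.07-fold lower. The adjusted p was 0.253 by edgeR and 0.0504 by DESeq2, neither past the threshold, and ran from 0.0504 to 0.719 over all alternatives. Groups that do not overlap in CPM were found in 2 of the 17 members, Cyp2b10 and Cyp2j6, and in 6.05% of all tested genes, 2.81% being lower in DSS+CA as Cyp2b10 was and 3.24% higher as Cyp2j6 was.

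Cyp2j6, of a subfamily that makes epoxides from arachidonic acid outside the liver, is ENSMUSG00000052914 and lies at chr4:96516138-96553661 on the minus strand. It was at 125, 220, 205 and 155 CPM in DSS 1 to 4 and at 239, 228, 352 and 281 CPM in DSS+CA 1 to 4. Every DSS+CA library was above every DSS library, closest between DSS 2 and DSS+CA 2. In FPKM the gap was wider: the DSS libraries lay within 42.2 to 46.9 FPKM and the DSS+CA libraries within 71.5 to 89.6 FPKM. The log2 fold change was 0.64 (SE 0.30, edgeR adjusted p = 0.661), 1.56-fold higher. Its neighbour Cyp2j9 (chr4:96568429-96591578), with a median of 1.75 FPKM, was at 3.11 to 8.70 CPM in DSS and 4.30 to 11.96 CPM in DSS+CA, with overlap (log2 fold change 0.23, SE 0.43, edgeR adjusted p = 0.996).

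Set against each other, the counts of Cyp2j6 were 0.943, 0.779, 0.946 and 0.800 times those of Cyp2b10 in DSS 1 to 4 and 3.17, 2.24, 3.34 and 2.42 times in DSS+CA 1 to 4. This ratio needs no scaling between libraries. The genes were chosen because their groups did not overlap, in opposite directions, so that the ratio's groups do not overlap either follows from the choice. Marker lists whose sums did not overlap between groups were, lower in DSS+CA, tuft (29.1 to 44.6 against 16.5 to 27.5 CPM), enteroendocrine (189 to 313.5 against 152 to 185 CPM), B and plasma cell (28.5 to 65.8 against 7.45 to 21.8 CPM) and fibroblast genes (1.86 to 5.79 against 0.600 to 1.84 CPM). These lists were picked out because their sums did not overlap. In the tuft and enteroendocrine lists every single marker overlapped between groups. Avil, of the tuft list, was at 6.41 to 9.27 CPM in DSS and 2.35 to 6.81 CPM in DSS+CA. Chga, of the enteroendocrine list, was at 39.8 to 56.0 and 33.6 to 44.5 CPM. Each of the lists named above had all its members detected, but the fibroblast genes were near the floor. They ran from 3 counts over all 8 libraries for Pdgfra to 110 for Col3a1. The colon list was higher, at 235 to 312 against 399 to 669 CPM, with Car1 at 0 and most of the sum from Car4 and Slc26a3, which the small intestine also expresses. Their part in the values of Cyp2b10 and Cyp2j6 was not tested.

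**Figure D3:**
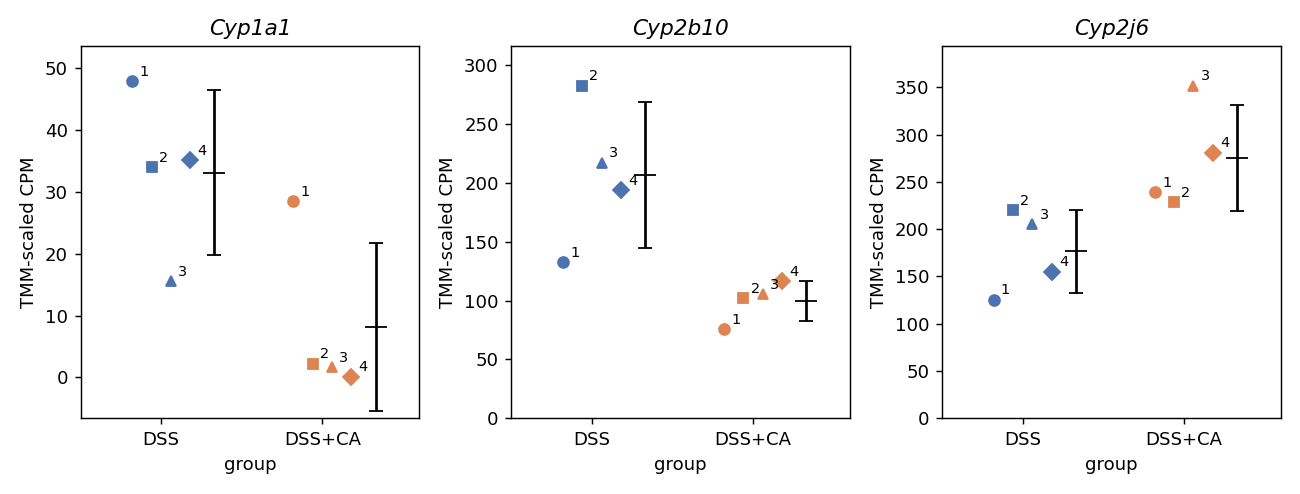
TMM-scaled CPM of Cyp1a1, Cyp2b10 and Cyp2j6 in each library by group, with replicate numbers beside the points and the mean ± SD (n = 4) as a black bar. The groups do not overlap for Cyp2b10 and Cyp2j6; for Cyp1a1, DSS+CA 1 at 28.5 CPM lies among the DSS libraries and the other 3 lie at 0.109 to 2.21 CPM.

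Cyp1a1, the classic target of the aryl hydrocarbon receptor and an enzyme that clears dietary and microbial ligands of it, is ENSMUSG00000032315 and lies at chr9:57697613-57703822 on the plus strand. The 250 bases before its start are shown with GCGTG, the core bound by Ahr and its partner, in capitals.
Cyp1a1, chr9:57697363-57697612, plus strand: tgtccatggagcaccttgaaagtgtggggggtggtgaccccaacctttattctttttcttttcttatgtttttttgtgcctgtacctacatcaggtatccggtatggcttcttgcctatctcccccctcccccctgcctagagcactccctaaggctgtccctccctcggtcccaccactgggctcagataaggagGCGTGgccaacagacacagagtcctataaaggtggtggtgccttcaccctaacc
GCGTG on either strand occurred once here, 54 to 50 bases before the start, and in 28.2% of all windows. Of the 14 tested members with a window, Cyp2b10, Cyp2c68 and Cyp2j9 also held it.

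Cyp1a1 was at 47.9, 34.0, 15.5 and 35.1 CPM in DSS 1 to 4, from 785, 446, 204 and 623 counts. In DSS+CA 1 to 4 it was at 28.5, 2.21, 1.64 and 0.109 CPM, from 540, 35, 16 and 2 counts. DSS+CA 1 lay above DSS 3, and the other 3 DSS+CA libraries lay below every DSS library. The means were 33.1 ± 13.3 and 8.12 ± 13.6 CPM (SD, n = 4 each), with a log2 fold change of -2.02 (SE 1.06, edgeR adjusted p = 0.730). It was -3.95 with limma-voom and -3.59 with a replicate block (adjusted p = 0.0829). Without DSS+CA 1 it was -4.67, with an adjusted p of 0.0581, the lowest among the alternatives, whose highest was 1. Of the other members of family 1, Cyp1a2 had 15 counts in DSS and 6 in DSS+CA, and Cyp1b1 had none.

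Other genes of the receptor were read beside it. Ahr itself was at 7.76 to 17.3 CPM in DSS and 8.38 to 17.9 CPM in DSS+CA (log2 fold change -0.06). Ahrr, the receptor's repressor and target, was below the filter, with 44 counts in DSS and 9 in DSS+CA; its values were 1.22, 0.381, 0.228 and 0.902 CPM in DSS 1 to 4, and 0.370, 0.127, 0 and 0 CPM in DSS+CA 1 to 4. As for Cyp1a1, DSS+CA 1 was the highest library of its group. Of the 4 tested non-P450 targets of the list, 3 had a log2 fold change above 0 and none was called by edgeR. Tiparp, another feedback gene of the receptor, was at 23.4 to 71.3 CPM in DSS and 19.97 to 51.9 CPM in DSS+CA, and Nqo1, a quinone reductase that also answers to oxidative stress, was at 26.5 to 45.6 and 49.9 to 79.3 CPM. For both, DSS+CA 1 was the lowest library of its group, unlike for Cyp1a1.

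Among the 8 Cyp2d genes, 2 were tested. Cyp2d26 (chr15:82790107-82794245) was at 238, 186, 276 and 237 CPM in DSS 1 to 4 and at 369, 356, 181 and 332 CPM in DSS+CA 1 to 4. DSS+CA 3 was the lowest of all 8 libraries and the other 3 DSS+CA libraries were above every DSS library. The log2 fold change was 0.40 (SE 0.31, edgeR adjusted p = 0.907). Cyp2d22, at 15.2 to 34.4 CPM in DSS and 10.7 to 32.0 CPM in DSS+CA, had a log2 fold change of -0.27 (SE 0.38, edgeR adjusted p = 0.980).

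Cyp2s1, an epithelial enzyme of barrier tissues (chr7:25802475-25816913), was at 53.5, 20.8, 49.6 and 52.2 CPM in DSS 1 to 4 and at 61.3, 41.1, 21.3 and 50.1 CPM in DSS+CA 1 to 4. DSS 2 and DSS+CA 3 were the low libraries, and the log2 fold change was -0.02 (SE 0.39). Cyp2u1, a fatty acid hydroxylase (chr3:131288441-131303227), was at 4.04 to 11.7 CPM in DSS and 4.91 to 8.29 CPM in DSS+CA (log2 fold change -0.39, SE 0.37, edgeR adjusted p = 0.942). Each overlaps a gene on the opposite strand, but those had 0 and 3 counts in all.

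The libraries ordered the members in opposite ways. DSS 2 was the highest library of its group in 12 of the 17 members, which included every tested gene of Cyp2b, Cyp2c, Cyp2j and Cyp3a, and the lowest in 4: Cyp2d22, Cyp2d26, Cyp2s1 and Cyp2u1. DSS+CA 3 was the highest of its group in 10 members and the lowest in 5, Cyp2c44 and those same 4. Cyp2d22, Cyp2d26, Cyp2s1 and Cyp2u1 thus had their lowest DSS value in DSS 2 and their lowest DSS+CA value in DSS+CA 3. Those libraries had short counted genes and the highest mitochondrial shares of their groups. DSS 3, which also had short counted genes, was the highest DSS library for Cyp2d26 (276 CPM) and Cyp2u1 (11.7 CPM). For Cyp2d22 (23.9 CPM) and Cyp2s1 (49.6 CPM) it lay between other DSS libraries. The part of gene length and mitochondrial share was not tested. Without DSS 2, DSS 3 and DSS+CA 3 no member was called by edgeR, and the smallest adjusted p were those of Cyp2j6 (0.0508, log2 fold change 0.81), Cyp2c55 (0.0509, -1.67), Cyp3a59 (0.0565, -1.65) and Cyp3a25 (0.0647, -1.50). In that comparison of 2 DSS libraries with 3 DSS+CA libraries edgeR called 234 genes higher and 421 lower.

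**Figure D4:**
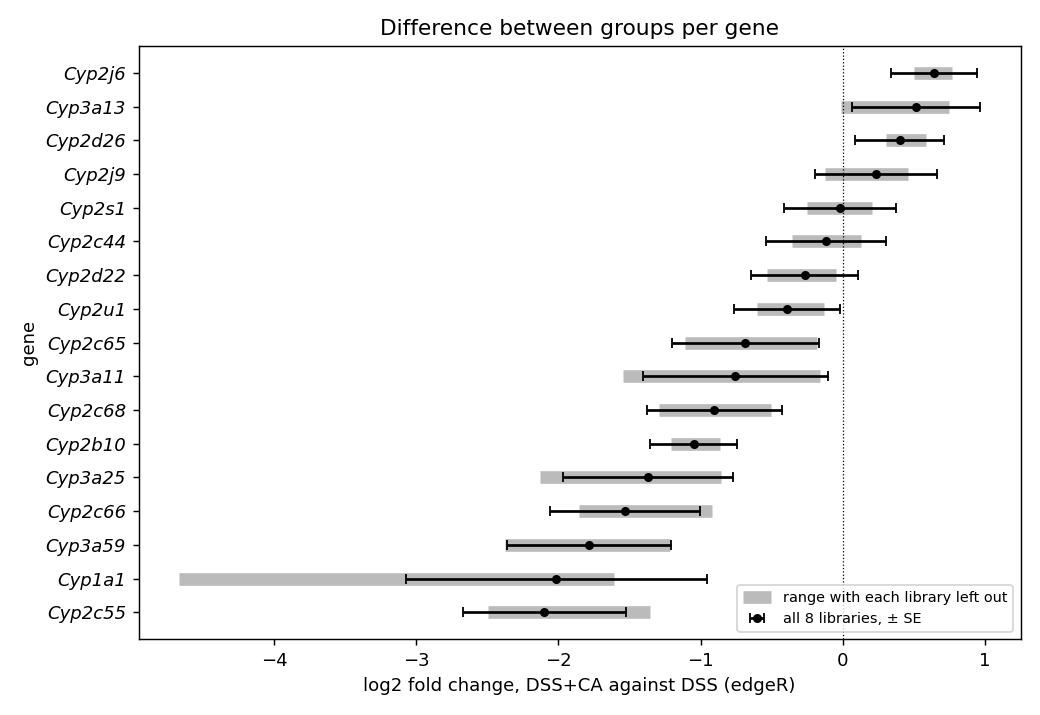
Log2 fold change of DSS+CA against DSS for the 17 tested members from edgeR, with black bars for ± SE over all 8 libraries and grey bars for the range when each library was left out in turn. Values run from -2.10 for Cyp2c55 to 0.64 for Cyp2j6; the grey bar of Cyp1a1 is the widest, from -4.67 to -1.61.

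The other 43 members were below the filter. Of these, 22 had counts, 13 of them at least 10. Cyp3a44, a female-predominant Cyp3a gene of mouse liver, had 11, 127, 6 and 46 counts in DSS 1 to 4 and 0, 3, 11 and 0 in DSS+CA 1 to 4, so that DSS 2 alone held most of its counts. Cyp2c29 had 136 counts in DSS and 114 in DSS+CA, and Cyp2c67, whose coding sequence is 97.2% identical to that of Cyp2c68, had 100 and 32. Cyp2e1, the ethanol-oxidising enzyme, had 42 and 48 counts, Cyp2r1, a vitamin D hydroxylase, 28 and 59, and Cyp2d10 37 and 23. Cyp2c38 had 24 and 33, Cyp2c70 18 and 34, Cyp2w1 14 and 3, Cyp2j8 7 and 8, Cyp2d9 9 and 5, and Cyp2f2 4 and 8. The remaining 9 had 1 to 9 counts each. No fold is given for these members, which were not tested.

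The genes that control and serve the P450 enzymes were read from lists, and edgeR called none of their members. PXR (Nr1i2) was at 122, 237, 253.5 and 159 CPM in DSS 1 to 4 and at 142.5, 191.5, 245 and 184 CPM in DSS+CA 1 to 4, with a log2 fold change of -0.01. CAR (Nr1i3) was at 40.5 to 88.2 and 61.1 to 103 CPM (log2 fold change 0.33). Both overlapped between groups. Of 12 tested receptors and cofactors of 13, 6 were above 0 and 6 below, with a median of 0.06 against 0.02 over all tested genes. Nr1h4, the bile acid receptor FXR, had a log2 fold change of 0.73 (SE 0.49) and Ppara, a fatty acid receptor, of 0.72. Nr0b2, a repressor induced by FXR, was at 1.14 to 2.01 CPM in DSS and 3.27 to 12.1 CPM in DSS+CA, without overlap (log2 fold change 2.03, SE 0.47, edgeR adjusted p = 0.120).

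The targets of PXR and CAR outside the P450 genes, 9 of 9 tested, had log2 fold changes above 0 for 8 and a median of 0.52, against 0.02 over all tested genes. Among the tested Cyp3a and Cyp2b genes of the same receptors, none of them called by edgeR, only Cyp3a13 was above 0. It was at -0.02 without DSS+CA 3. Cyp3a25 and Cyp3a59 share sequence, so their values are not separate observations. The difference between these genes and the list was not tested. Gsta1, a glutathione transferase, was at 12.99, 28.6, 48.8 and 21.5 CPM in DSS 1 to 4 and at 69.0, 76.4, 73.3 and 79.6 CPM in DSS+CA 1 to 4, without overlap (log2 fold change 1.42, SE 0.38, edgeR adjusted p = 0.184). Ugt1a1, which conjugates bilirubin and shares exons with the other Ugt1a genes, had a log2 fold change of 0.88, and Gstm1 of 0.79. The 5 FXR targets all had log2 fold changes above 0, with a median of 0.62. Without DSS+CA 3, 3 of the 5 were above 0 and the median was 0.49. The 2 that turned, Slc51b and Fabp6, were picked out after their values were seen: Slc51b was at 79.9 to 369 CPM in DSS and at 59.8, 125, 1055 and 143.5 CPM in DSS+CA 1 to 4, and Fabp6 at 380 to 1234 CPM and at 491, 444, 2181 and 570 CPM. Fgf15, the hormone by which the ileum restrains bile acid synthesis, was at 5.72 to 22.7 CPM in DSS and 31.1 to 123 CPM in DSS+CA (log2 fold change 2.27, SE 0.53, edgeR adjusted p = 0.125), and Slc51a, a bile acid exporter, had 0.50. Ugt1a6a, from the list of the aryl hydrocarbon receptor, had 1.16 (edgeR adjusted p = 0.303), with the same limit as Ugt1a1.

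Of 6 tested genes of electron supply, 4 were above 0, with a median of 0.18. Por, on which all microsomal P450 enzymes depend, was at 110, 63.8, 274 and 120 CPM in DSS 1 to 4 and at 353, 308, 185 and 358 CPM in DSS+CA 1 to 4; DSS 3 lay within the DSS+CA range and the log2 fold change was 1.09 (SE 0.44, edgeR adjusted p = 0.532). Pgrmc2, a haem-binding partner, had 0.39 (edgeR adjusted p = 0.844). Its groups did not overlap, but only by the gap between 72.8 CPM in DSS 3 and 73.1 CPM in DSS+CA 4. Groups did not overlap in CPM for 6.05% of all tested genes. Cyb5r3, a cytochrome b5 reductase, had a log2 fold change of 0.29. The 11 of 12 tested genes of haem synthesis and breakdown had 6 above 0 and 5 below, with a median of 0.01. Among these Cpox, of haem synthesis, had a log2 fold change of 0.68, and Blvrb, of haem breakdown, of -0.81. Both tested epoxide hydrolases, which take up the epoxides that P450 enzymes make, were below 0, Ephx1 with -0.36 and Ephx2 with -0.10.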

How the data were processed

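RNA of 8 crypt libraries, 4 labelled DSS and 4 DSS+CA, went into stranded total RNA libraries per the labels' protocols. Each library has a table of raw counts and FPKM per Ensembl gene, per the file headers. The submitters' processing notes list HISAT2 and StringTie, with no version, and the builds GRCm38 and mm10. What counted the reads, on which annotation and with which strand option, is not given in the sources used here. Deposited FPKM equal count over gene length and library total; the length this implies agreed within 1% across libraries for 17718 of 17718 genes.

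Genes with at least 1 FPKM in at least 4 libraries were tested on counts with edgeR 4.0.16 (quasi-likelihood, TMM scaling, group as the only term, two-sided, Benjamini-Hochberg over 9913 genes, threshold 0.05). The SE is the log2 fold change over the square root of F. CPM are TMM-scaled. DESeq2 1.42.0 and limma 3.58.1 (voom) were alternatives, with other scalings, filters, a replicate block and left-out libraries. The fits were tested on simulated data. TMM factors ran from 0.736 to 1.30.

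All tested members are named, untested ones with 10 or more counts, and from each pathway list up to 3 tested genes (5 for other P450 families) with the smallest p; 1 gene that this rule names is not reported here. Some named beside these (Ahr, Ahrr, Nr1i2, Nr1i3 and the marker genes) were chosen for their roles. The members and lists were chosen with earlier results of these data known. Gene coordinates are the deposited ones, 45 of 60 equal to GENCODE M21. Upstream sequences come from RefSeq (GRCm38.p6), where 52 of 60 members matched by symbol. Shared sequence was counted over 50-base stretches of the M21 transcripts.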

Additional observations from a re-analysis of the deposited data

Results flagged for a closer look

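Each tested member was examined in each group for a library that stood apart from the other 3, taken as a gap to the nearest library, as a share of the group's range, above Dixon's 95% limit. Of 34 such groups 4 met this, and chance alone gives about 1 in 20. Cyp1a1 was at 28.5 CPM in DSS+CA 1, with a gap of 0.926 of the range. Cyp3a13 was at 3204 CPM in DSS+CA 3, with a gap of 0.877. Cyp2s1 was low in DSS 2, at 20.8 CPM, with a gap of 0.881. Cyp2u1 was high in DSS+CA 1, at 8.29 CPM, with a gap of 0.843.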

How the results depend on the processing

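Under 17 alternatives no member was called higher in DSS+CA, and DESeq2 alone called a member lower (1, Cyp2c55); 13 of the 17 tested members kept the sign of their log2 fold change in all of them. The added alternative with library totals and no TMM was chosen after seeing the data, and it moved the median of all tested genes from 0.02 to 0.21. Cyp2c44 turned to 0.23 without DSS 2, DSS 3 and DSS+CA 3 and to 0.18 with no TMM, and ran from -0.36 to 0.13 with each library left out in turn. Cyp2s1 turned to 0.0518 with no filter, 0.0161 with filterByExpr and 0.20 with no TMM, and ran from -0.25 to 0.21. Cyp2j9 ran from -0.13, without DSS+CA 3, to 0.46, and Cyp3a13 from -0.0153, without DSS+CA 3, to 0.74. Nr1h4 ran from -0.00735, without DSS+CA 3, to 0.99, and Ephx2 from -0.18 to 0.0661, the latter without DSS 3. Without the 3 libraries Ephx1 turned to 0.15 and Ephx2 to 0.0577, and with no TMM Ephx2 to 0.13. The cause was not tested.

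Over all tested genes edgeR called 4 higher and 9 lower in DSS+CA. The counts were 7 and 20 with RLE scaling, 8 and 19 with library totals without mitochondrial genes, 51 and 169 with DESeq2, 11 and 23 with limma-voom, 18 and 61 with no filter, 234 and 421 without the 3 libraries, and 2 and 6 with no TMM. With each library left out they ran from 0 to 19 higher and from 4 to 65 lower, both highest without DSS+CA 3. In the pathway lists, where none was called, DESeq2 called 1 receptor, 1 PXR or CAR target, 2 FXR targets and 1 gene of other P450 families, and no filter gave 1 FXR target; Nr0b2 stands in the lists of receptors and FXR targets and is counted in both, here and without DSS+CA 3. Without the 3 libraries 1 receptor, 1 gene of electron supply, 1 of haem, 2 targets of the aryl hydrocarbon receptor, 3 of PXR or CAR and 2 genes of other P450 families were called. Without DSS+CA 3 the lists of receptors, FXR targets and other P450 families had 1 each, and with any other library left out 0. Groups did not overlap in FPKM for 4 members, against 5.89% of all tested genes, and in CPM for 2, against 6.05%.

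The groups share replicate numbers, and the correlations of same-numbered deviations were 0.752, -0.344, 0.105 and 0.197. That of DSS 1 with DSS+CA 1 was the highest of any pair, while DSS 2 correlated best with DSS+CA 3 (0.734). These correlations cannot tell a pairing from the axis along which libraries differed within groups, so whether same-numbered libraries belong together is not known. With the replicate block 14 genes were called higher and 51 lower, 0 of them members, and 1 FXR target, Fgf15. For the 43 members below the filter, low depth and low expression were not told apart.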

Other observations

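The P450 families outside 1 to 3, which serve fatty acids, sterols, vitamins and bile acids, had 11 of 39 listed genes tested and none called by edgeR. Of the 11, 7 had a log2 fold change above 0, with a median of 0.15 against 0.02 over all tested genes. Cyp4a10, a fatty acid omega-hydroxylase and classic target of PPAR alpha, was at 2.44, 1.37, 2.74 and 0.846 CPM in DSS 1 to 4 and at 10.2, 8.79, 2.56 and 6.16 CPM in DSS+CA 1 to 4. Only DSS+CA 3 lay within the range of the DSS libraries. Its log2 fold change was 1.91 (SE 0.51, edgeR adjusted p = 0.182). Cyp4f16 and Cyp4f40 had log2 fold changes of 0.61 and 0.65. Cyp4v3, a fatty acid hydroxylase of high level here, averaged 1071 ± 512 CPM over the DSS libraries and 589 ± 256 CPM over the DSS+CA libraries (SD, n = 4 each), with overlap, and had a log2 fold change of -0.86. Cyp39a1, an oxysterol hydroxylase, had -0.76. The liver enzymes of bile acid synthesis Cyp7a1, Cyp7b1 and Cyp8b1 had no count in any library. The 9 pseudogenes left out of the families held 11 counts in DSS and 5 in DSS+CA.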
